A study of Mus musculus with 2 samples.

Results

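Transfer RNA (tRNA) genes were examined in DNase-seq data from the mouse urinary bladder. The set held 386 genes, which are all features of type tRNA on chromosomes 1 to 19 in the RefSeq annotation of GRCm38.p6, out of 445 tRNA features on all of its sequences. Both libraries came from whole bladder tissue. The mice were B6CASTF1/J males, an F1 hybrid of the B6 and CAST strains, 36 days old, and the libraries form the only group of the series. The labels number them biological replicates 1 and 2 and name them Male 05 and Male 06. DNase I cuts the DNA of open chromatin more readily, and a DNase peak marks a stretch with many cuts. A footprint is a short stretch within it with fewer cuts than its neighbourhood, as left by a bound protein. Whole bladder holds urothelium, smooth muscle and connective tissue, so a closed gene and one open in few of the cells cannot be told apart.

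tRNAs carry amino acids to the ribosome, and each isotype (the amino acid) is served by many genes that differ in anticodon or in no base at all. They are transcribed by RNA polymerase III from promoters that lie inside the gene. The A box and the B box are bound by TFIIIC, which places TFIIIB just upstream of the start, and a run of T ends transcription. The 386 genes carried 211 distinct gene sequences, introns included, and 227 genes shared their sequence with at least 1 other member.

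The following genes are shown because they carried the highest peaks of the set or stand for the sequences that later comparisons turn on. They are printed 5′ to 3′ on the coding strand from GRCm38.p6 in lower case, with the 11 bases at the B box in capitals. n-TStga3 (tRNA-Ser, chr10:63429476-63429557, minus strand), n-TRacg6 (tRNA-Arg, chr14:54517696-54517768, plus strand), n-TNgtt14 (tRNA-Asn, chr5:149229001-149229074, minus strand) and n-TLaag4 (tRNA-Leu, chr7:120917517-120917598, plus strand) had the 4 highest peaks by their mean percentile over both libraries.
n-TStga3: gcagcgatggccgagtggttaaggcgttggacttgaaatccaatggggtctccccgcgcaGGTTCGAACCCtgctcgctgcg
n-TRacg6: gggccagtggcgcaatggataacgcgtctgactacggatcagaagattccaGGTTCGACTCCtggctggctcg
n-TNgtt14: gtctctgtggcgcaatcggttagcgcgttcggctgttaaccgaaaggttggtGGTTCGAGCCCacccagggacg
n-TLaag4: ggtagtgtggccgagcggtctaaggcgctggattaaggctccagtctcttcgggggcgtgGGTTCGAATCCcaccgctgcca

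n-TCgca55 (tRNA-Cys, chr11:97988246-97988317, minus strand) is an open cysteine gene, and n-TCgca37 (tRNA-Cys, chr6:48133937-48134008, plus strand) stands for the 29 identical cysteine genes that had no peak. n-TMcat11 (tRNA-Met, chr3:90475860-90475931, minus strand) stands for the 7 identical methionine genes whose B box departs from the common letters.
n-TCgca55: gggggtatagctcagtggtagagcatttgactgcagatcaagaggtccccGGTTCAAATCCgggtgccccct
n-TCgca37: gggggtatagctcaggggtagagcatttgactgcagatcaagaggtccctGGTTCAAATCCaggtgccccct
n-TMcat11: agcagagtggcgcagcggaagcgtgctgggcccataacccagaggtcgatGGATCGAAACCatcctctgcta

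n-TDgtc4 (tRNA-Asp, chr1:171037029-171037100, minus strand) stands for a sequence that was open at some copies and closed at others. n-TGtcc1 (tRNA-Gly, chr1:171064699-171064770, minus strand) was the only open gene of a repeated array on chromosome 1.
n-TDgtc4: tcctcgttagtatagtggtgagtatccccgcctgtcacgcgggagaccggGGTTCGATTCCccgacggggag
n-TGtcc1: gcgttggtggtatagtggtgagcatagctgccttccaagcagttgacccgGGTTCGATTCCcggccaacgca

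A gene was called open when the gene plus 100 bases on each side overlapped a peak by at least 1 base in both libraries, with the shorter of the deposited peak lists of each library (38674 and 47661 peaks). It was called single when it did so in 1 library and closed when it did so in neither. Of the 386 genes, 151 (39.1%) had a peak in replicate 1 and 174 (45.1%) in replicate 2, a mean of 162.5 ± 16.3 (SD, n = 2). In all, 148 genes were open, 29 single and 209 closed. Genome windows of the median length of these gene windows, 272 bases, had a peak in 0.727% of cases in replicate 1, 0.895% in replicate 2 and 0.614% in both. Protein-coding starts with a window of that length had one in 46.3%, 47% and 43.8%. The open share of tRNA genes was therefore near that of annotated protein-coding starts and far above that of the genome. No test was made, since there is 1 group and genes are not replicates.

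The single genes were unequally split between the libraries. Of the 29, 3 had a peak only in replicate 1 and 26 only in replicate 2, and 2 and 16 of these were in the longer peak list of the other library. The longer list of replicate 2 held 79598 peaks and that of replicate 1 held 63793. Peak heights came in steps that were 1.27 times larger in replicate 1 than in replicate 2, and the part of read depth in the split was not tested.

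Peak height is the authors' deposited signal value per peak, which has no stated scale, so each tRNA gene's strongest peak was placed as a percentile among all peaks of its own library. The 148 open genes had a median percentile of 76.3 in replicate 1 (lowest 5.91, highest 99.9) and 82.5 in replicate 2 (lowest 8.84, highest 99.9). The medians averaged 79.4 ± 4.42 (SD, n = 2). Peaks at protein-coding starts had medians of 81.9 and 86.0 over 22801 starts. Among the open tRNA genes, 37 were above the 90th percentile in replicate 1 and 50 in replicate 2, while 30 and 9 were below the 50th.

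The gene order was alike in both libraries. The percentiles of the 148 open genes had a Spearman rho of 0.937 across genes, which share libraries and clusters and are not independent replicates. The percentile was higher in replicate 2 at 128 of the 148, with a median absolute difference of 6.77 points.

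**Figure D1:**
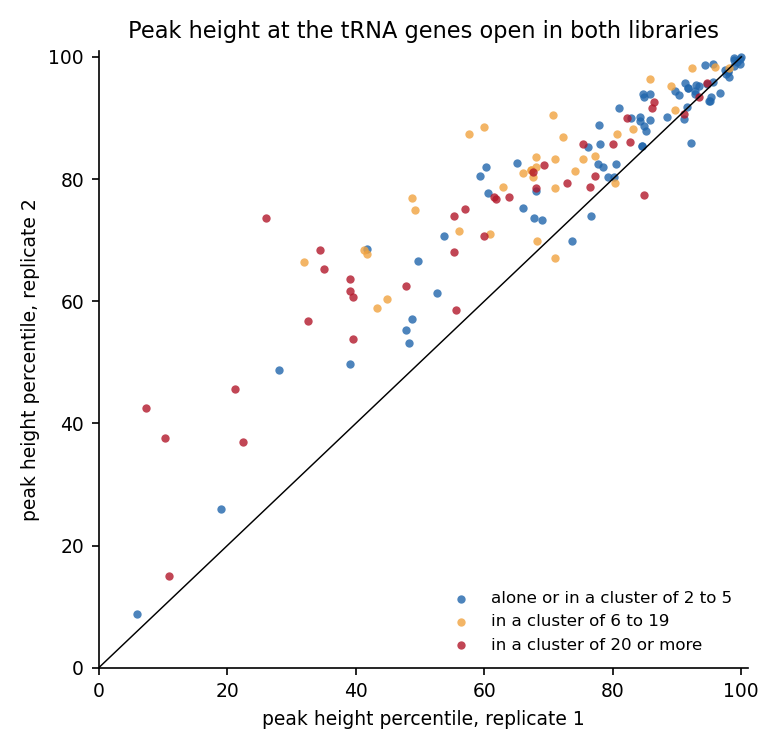
Percentile of the strongest DNase peak at each of the 148 tRNA genes open in both libraries, replicate 1 on the horizontal axis and replicate 2 on the vertical axis, coloured by the number of tRNA genes in the gene's cluster (gaps of at most 50 kb). Most points (128 of 148) lie above the line of equality. Genes of clusters of 20 or more reach the lower part of the range, as do n-TEttc8 (in a cluster of 3) and n-TQctg2 (alone).

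The highest peak of the set lay at n-TStga3, a serine gene with the anticodon TGA. Its height was 8.79 in replicate 1 and 9.29 in replicate 2, percentile 99.9 in each, and it lay 541 bases from an open start of Ctnna3, which codes for an alpha-catenin of cell junctions. n-TRacg6, an arginine gene, had heights of 7.64 and 7.25 and lay 171 bases from Prmt5, an arginine methyltransferase. n-TNgtt14, an asparagine gene, had heights of 7.36 and 6.14 and lay 44.4 kb from the nearest open protein-coding start, that of Uspl1. High peaks were thus found both beside and far from protein-coding starts called open. The peaks of n-TStga3 and n-TRacg6 lay within 500 bases of the starts named, so the open calls of those starts may rest on them.

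The fourth highest, n-TLaag4, lay 227 bases from the start of Polr3e, which codes for a subunit of RNA polymerase III itself. Its percentiles were 98.8 and 99.7, and the strongest peak near the Polr3e start had the same ones, since it is 1 peak in each library. The other members of the top 10 were n-TLcag4, n-TRtcg5 (57 bases from a start of Polg, the mitochondrial DNA polymerase), n-TRccg1, n-TPagg4, n-TIaat16 and n-TTcgt5. n-TTcgt5, a threonine gene, had percentiles of 97.9 and 97.5 at 78.9 kb from the nearest open start.

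At the low end, n-TEttc8 on chromosome 9 had the weakest peaks of any open gene, with heights of 0.624 and 0.554 and percentiles of 5.91 and 8.84. n-TRccg3 was at 10.99 and 14.99, n-TQctg2 at 19.1 and 26.0, and n-TMcat8 at 10.3 and 37.6. n-TMcat8 and n-TQctg2 had no footprint in either library. In n-TMcat8 the libraries differed by more than the set's median difference.

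All 20 isotypes of the annotation had at least 1 open gene. Sorted by anticodon, 45 of 48 sets had one, and the 3 without, tRNA-Gly ACC, tRNA-His ATG and tRNA-Ser GGA, held 1 gene each. The annotation used here marks no initiator methionine gene, and none of the members is annotated as a selenocysteine gene. In 12 genes the anticodon given by the annotation differed from the one in the symbol (8 lysine and 4 isoleucine genes), and the annotated anticodon was used.

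Proline and arginine had the highest open shares. Of 15 proline genes 10 (66.7%) were open, 3 single and 2 closed, and of 23 arginine genes 15 (65.2%) were open. Tyrosine followed with 6 of 10. Cysteine had the lowest share, 5 of 57 (8.77%), followed by glutamine with 4 of 15 (26.7%), lysine with 7 of 25 (28%) and alanine with 6 of 21 (28.6%). The other 13 isotypes lay between 31.2% (aspartate, 5 of 16) and 57.1% (phenylalanine, 4 of 7).

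Shares also differed between anticodons of 1 isotype. Of the glutamine genes, 1 of 10 with CTG and 3 of 5 with TTG were open. All 3 arginine genes with CCG and 4 of 5 with TCG were open, against 2 of 6 with ACG. These sets are small, and members that share a sequence or a cluster are not independent.

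**Figure D2:**
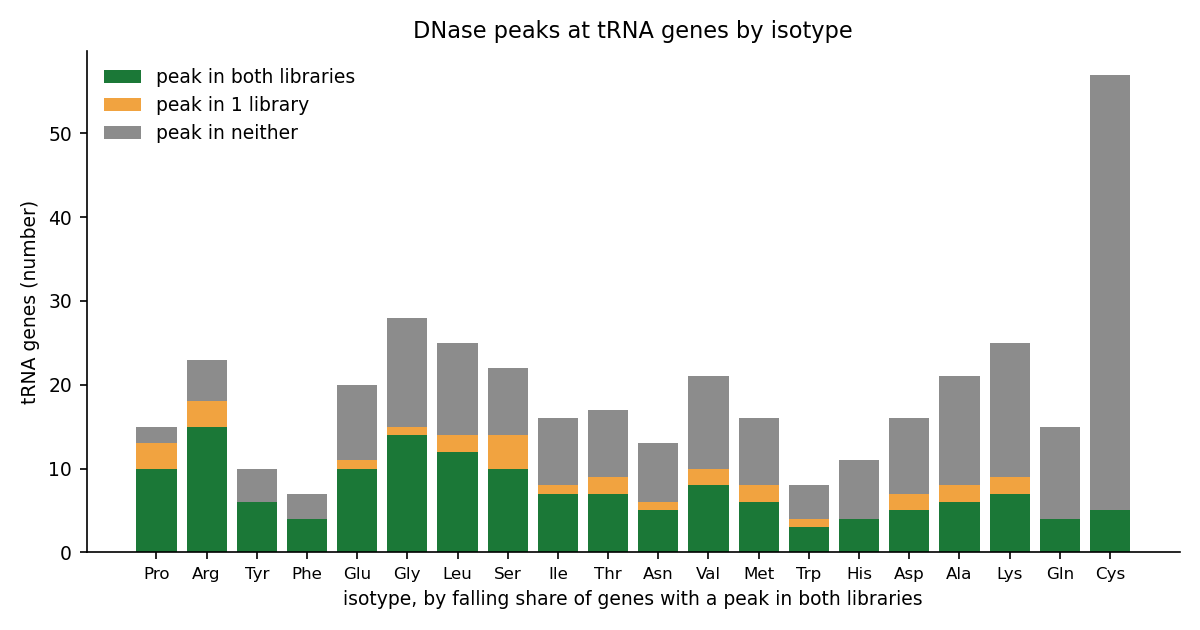
Number of tRNA genes (vertical axis) of each isotype (horizontal axis) with a DNase peak in both libraries, in 1 or in neither. Every isotype has genes of the first kind, and cysteine stands apart with 52 of 57 genes without a peak.

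The strongest gene of each isotype was also compared. They included n-TAcgc8, n-TRacg6, n-TNgtt14, n-TDgtc9, n-TCgca55, n-TQttg6, n-TGccc7, n-THgtg3, n-TIaat16, n-TLaag4, n-TKctt17, n-TMcat11, n-TFgaa3, n-TPagg4, n-TStga3, n-TTcgt5, n-TWcca5, n-TYgta10 and n-TVcac9. The lowest of them was the aspartate gene n-TDgtc9, at percentiles 70.7 and 90.4. The lysine gene n-TKctt17, at 78.1 and 85.7, was next. Each isotype therefore had at least 1 gene with a peak above the median height of both libraries.

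Of the cysteine genes, 48 lay in 1 cluster of 230 kb on chromosome 6 (chr6:48133937-48363603), with open starts of Zfp746, a zinc finger gene, and Krba1 within 50 kb, and none was open or single. Outside it, 9 cysteine genes were annotated, and 5 of them were open. The cluster also held few other peaks, 1 in replicate 1 and 2 in replicate 2. Many cluster windows are copied sequence. The share of their 36-base words found once in the assembly had a median of 51.7% (range 2.11% to 100%), against 82.3% to 84.0% in the 9 genes elsewhere. In 13 of the 48 windows the share was at least 75%, and none of these 13 was open.

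The open cysteine genes had full values in both libraries. n-TCgca55 was at percentiles 94.7 and 95.5, n-TCgca51 at 82.9 and 90.03, n-TCgca54 at 66.1 and 75.3, and n-TCgca18 at 60.2 and 82.0, all on chromosome 11. n-TCgca57, which lies on chromosome 6 outside the cluster, was at 49.7 and 66.6. The closed cysteine genes outside the cluster were n-TCgca47 and n-TCgca53 on chromosome 9, n-TCgca52 on chromosome 17 and n-TCgca56 on chromosome 11. n-TCgca56 lay 1.93 kb from an open start of Lasp1 and was closed, whereas n-TCgca51 lay 23 bases from one.

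Base differences were listed against n-TCgca55, with positions counted from 1 at the 5′ end of the gene. G62A, next to the B box, was present in 48 closed genes and in no open gene, while 5 open and 3 closed genes kept the base of n-TCgca55. C50T was present in 48 closed and 2 open genes, and T16G in 46 closed and 1 open. Of the 4 closed genes outside the cluster, 3 carried G62A and n-TCgca56 did not. Of the 5 open genes, 3 hold the sequence of n-TCgca55 itself, as does the closed n-TCgca56. Identical copies were thus counted as separate genes. The sequence shared by n-TCgca37 and 28 other genes carried T16G, C50T and G62A. Most carriers lie in 1 cluster, so these differences and the position cannot be told apart.

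Genes were linked into clusters where the gap to the next tRNA gene was at most 50 kb, which gave 123 groups, 92 of them a gene alone. Of the genes alone, 45 of 92 (48.9%) were open. The share was 29 of 47 (61.7%) in clusters of 2 to 5 and 36 of 57 (63.2%) in clusters of 6 to 19. In the 6 clusters of 20 or more it was 38 of 190 (20%), or 38 of 142 (26.8%) without the chromosome 6 cysteine cluster. Clusters of 6 or more together had 74 of 247 open (30.0%), 18.95 points below the genes alone. With identical gene sequences counted once, as open where any copy was, this difference turned to 2.05 points above, and without the chromosome 6 cluster it was 11.7 points below.

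The open genes of large clusters also had lower peaks. The median of their mean percentiles was 89.1 for genes alone, 86.5 in clusters of 2 to 5, 74.6 in clusters of 6 to 19 and 67.7 in clusters of 20 or more. A large part of these clusters lies on chromosome 13, where 26 of 105 genes (24.8%) were open. Outside chromosome 13 and the chromosome 6 cluster, 122 of 233 (52.4%) were.

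The largest cluster after the cysteine genes (chr13:23397060-23530419) held 36 genes and 13 open ones, near genes for histones and butyrophilins. Open and closed genes lay in runs along it. The first 10 genes, up to n-TYgta6, were closed, although 4 tyrosine genes among them lay 1868 to 4960 bases from an open start of Abt1. From n-TGgcc6 to n-TRtcg1, 7 genes in a row were open. n-TYgta7 had the highest peak of the cluster, at percentiles 93.4 and 93.5.

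The second chromosome 13 cluster (chr13:21848022-22050767), which also holds histone genes, had 5 of 32 open. The third (chr13:21160785-21326789), among olfactory receptor and zinc finger genes, had 6 of 24. A cluster of 9 genes on chromosome 13 (chr13:23270421-23317538) beside the vomeronasal receptor genes Vmn1r222 and Vmn1r223 had no open gene, 1 single gene and no other peak in either library. The cluster on chromosome 3 (chr3:96322074-96501518) had 4 of 25.

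On chromosome 11 (chr11:69037003-69125248) 16 of 18 genes were open, and the other two were closed. This cluster spans the clock gene Per1 and the mitotic kinase gene Aurkb, and 9 of the 11 protein-coding genes starting in it or within 50 kb had an open start. Its span held 20.4 and 22.7 other peaks per 100 kb, against 5.25 and 6.00 in the 36-gene cluster on chromosome 13 and 0.435 and 0.871 in the cysteine cluster. Its strongest gene was n-TSgct3, at percentiles 96.0 and 98.4. The closed genes n-TTagt7 and n-TQctg6 lay between open ones, 3.10 and 1.22 kb from an open start.

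**Figure D3:**
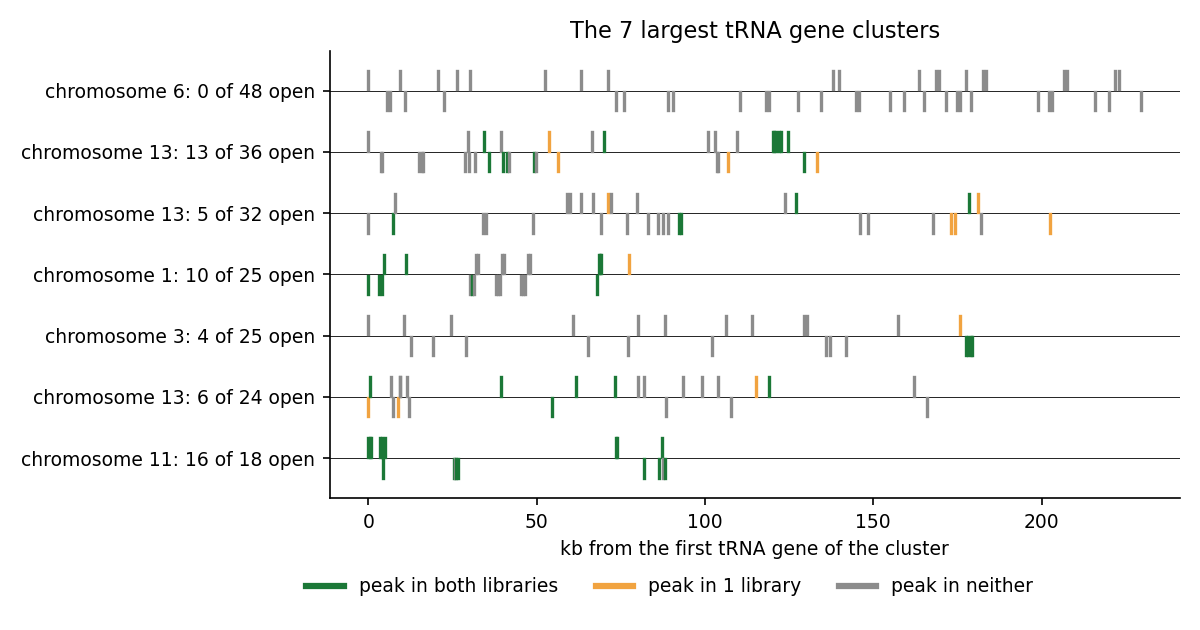
Each tRNA gene of the 7 largest clusters as a tick, by its distance in kb from the first gene of the cluster (horizontal axis), above the line for the plus strand and below it for the minus strand, coloured by whether it had a peak in both libraries, in 1 or in neither. The chromosome 6 row holds no open gene and the chromosome 11 row 16 of 18. Open genes sit in runs in the chromosome 1 row and in the chromosome 13 row of 36 genes.

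The chromosome 1 cluster (chr1:171033942-171111515) had 10 of 25 open, and its inner and outer genes differed in how often their sequence recurs in the assembly. An inner array of 15 genes (chr1:171064164-171081946) had 0% to 14.5% of its 36-base words found once, 9 of them none, and 1 gene was open. That gene, n-TGtcc1, lies in an exon of Fcgr3, an Fc receptor gene, 165 bases from an open start of it. Its peaks (mean percentile 81.1) lay only in the flank in replicate 1 and overlapped the gene by 2 bases in replicate 2. The 10 flanking genes had 79.0% to 83.9% found once, and 9 were open and 1 single. In the longer lists 4 and 3 of the array's genes had a peak. Reads from such an array may have no single place in the assembly, so closed genes there and unplaced reads cannot be told apart.

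Having an identical copy did not go with a low open share. Of the 227 genes with one, 102 (44.9%) were open, and of the 159 without, 46 (28.9%). Windows whose flanks recur as well held few open genes. Of 47 windows with under 50% of 36-base words found once, 1 (2.13%) was open, and of 29 windows with 50% to 75%, 3 were. Of 219 with 75% to 90%, 111 (50.7%) were open, and of 91 with 90% to 100%, 33 (36.3%). Thus 137 of the 209 closed genes had at least 75% of words found once. The read length is not given in the sources used here. With 76-base words, 1 of 44 genes under 75% was open.

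Genes with the same sequence were often in different states. Among 52 sequences with copies, 22 had both open and closed copies, 9 were open and 12 closed at every copy, and the other 9 included copies with a peak in 1 library. The 22 mixed sets held 127 genes, of which 69 were open, 47 closed and 11 single. Of these 47 closed copies, 28 had at least 75% of words found once and 17 under 50%. The open copies had the shorter median distance to an open protein-coding start in 15 of the 22 sets.

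The largest mixed set was the aspartate sequence of n-TDgtc4, with 5 open, 1 single and 7 closed copies. The asparagine sequence of n-TNgtt14 and n-TNgtt6 had 5 open, 1 single and 3 closed copies, with mean percentiles of its open copies from 69.2 to 99.3. A glycine GCC sequence had 5 open, 1 single and 2 closed copies, and the histidine GTG sequence had 4 open and 4 closed copies.

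The methionine sequence of n-TMcat11 had 7 copies, 4 open, 1 single and 2 closed, all with at least 75% of words found once. n-TMcat11 itself, 216 bases from a start of Ilf2, was at percentiles 84.9 and 93.4. n-TMcat7 was at 53.8 and 70.7, n-TMcat6 at 55.3 and 68.0, and n-TMcat8 at 10.3 and 37.6. n-TMcat9 had a peak only in replicate 2, at 47.3. The closed copies were n-TMcat10 and n-TMcat5. Of the 7 identical copies, the one outside chromosome 13 thus had the highest percentiles in both libraries.

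Distance to an open protein-coding start was taken from the tRNA gene start to the nearest of 26197 transcript starts (of 52063 in GENCODE) with a peak within 500 bases in both libraries. The median was 9.58 kb for open, 17.7 kb for single and 54.0 kb for closed genes, or 30.5 kb for closed genes without the chromosome 6 cluster. Within 10 kb lay 75 of 148 open genes (50.7%) and 38 of 209 closed ones (18.2%), a difference of 32.5 points. Of the genome, 8.34% lay within 10 kb of such a start. The peak of a tRNA gene itself could make a start within 500 bases open, so part of the difference may follow from the definition. Without the tRNA genes within 1 kb of a protein-coding start the difference was 21.8 points, and with genes of at least 75% unique words it was 30.3 points. Within 10 kb of any annotated protein-coding start, open or not, lay 58.1% of open and 24.9% of closed genes. Without the chromosome 6 cluster it was 32.3% of closed genes. The medians to any start were 7.81 and 28.2 kb. The nearest annotated start was itself open for 67.6% of open and 60.8% of closed genes, or 49.1% of closed genes without that cluster. Closeness to an open start and closeness to any start were thus not told apart.

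The open share was lower in each farther class. It was 30 of 39 (76.9%) under 1 kb, 45 of 83 (54.2%) from 1 to 10 kb, 58 of 137 (42.3%) from 10 to 50 kb and 15 of 127 (11.8%) beyond 50 kb. Among genes alone the shares were 19 of 23, 6 of 13, 15 of 25 and 5 of 31, so the order did not hold between 1 and 50 kb there. Of the 30 open genes under 1 kb, 24 had a strongest peak within 500 bases of an open start in both libraries. In 9 that peak covered an annotated start. The open call of such a start may rest on the tRNA gene's own peak, so the share under 1 kb is partly set by the definition. Peak heights differed less. Median percentiles were 84.8 and 89.4 under 1 kb and 68.0 and 78.5 beyond 50 kb.

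**Figure D4:**
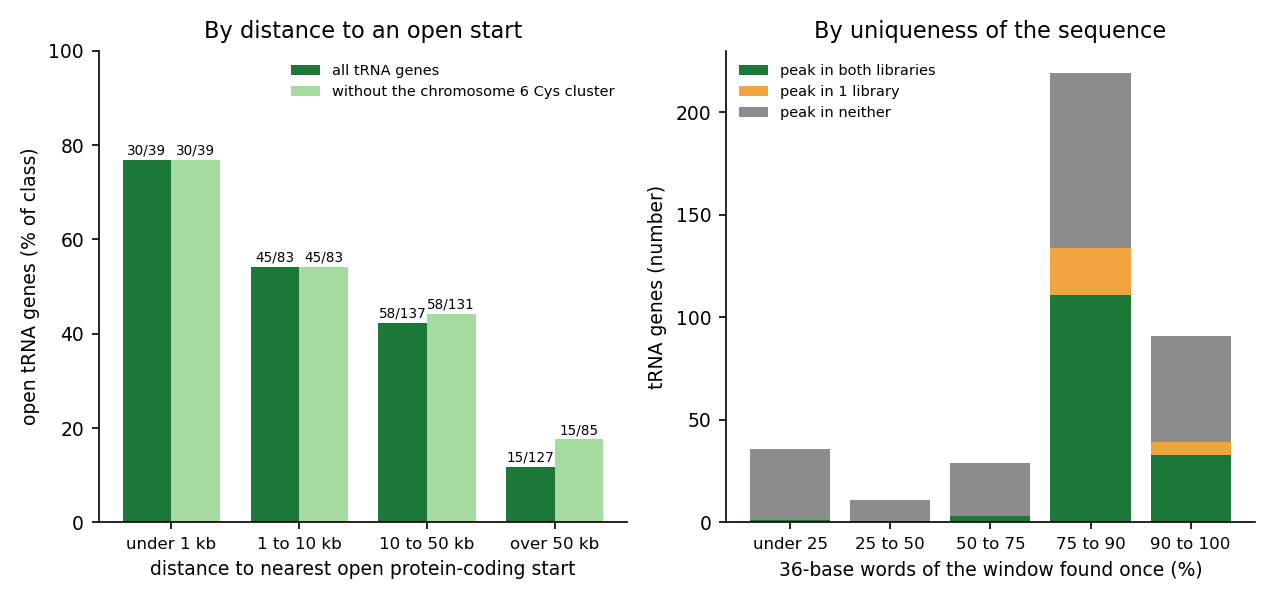
Left, share of tRNA genes open in both libraries (vertical axis, %) by distance to the nearest open protein-coding start, for all genes and without the chromosome 6 cysteine cluster, with the counts above the bars. Right, number of tRNA genes by the share of 36-base words of the window found once in the assembly. The share is highest under 1 kb (30 of 39), where the tRNA gene's own peak may have made the start open. It is lowest beyond 50 kb (15 of 127), and 1 of 47 genes with under 50% unique words is open.

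Some open genes stood far from any open protein-coding start. The farthest were n-TEttc7 at 258.9 kb, n-TIaat17 at 155.8 kb, n-TNgtt9 at 85.3 kb, n-TRtcg2 at 83.1 kb and n-TTcgt5 at 78.9 kb. n-TIaat17, an isoleucine gene, was at percentiles 97.7 and 97.1. n-TEttc7, a glutamate gene, was at 85.7 and 93.9. Distance therefore did not go with a weak peak at each gene.

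The closed genes nearest to an open start included n-TQctg9, n-TDgtc3, n-TAagc9 and n-TRacg3. n-TQctg9 lay 288 bases from a start of Rab11a, a recycling endosome GTPase gene, and had 2 footprints in its window in each library. Its window was accessible without a listed peak, with a lowest FDR of 5.48e-22 in replicate 1 and 6.05e-27 in replicate 2. The windows of n-TRacg3 (2.61e-17 and 1.80e-25) and n-TAagc9 (4.70e-14 and 3.74e-16) were so too. The nearest peak to n-TAagc9 lay 102 and 142 bases from the gene, just beyond the 100 bases used, and that to n-TRacg3 149 and 109 bases. n-TDgtc3 belongs to the repeated chromosome 1 array. Just inside the limit, n-THgtg5 had its peak over the gene in replicate 1 and 87 bases away in replicate 2, and n-TRtct1 had it 87 bases away and over the gene.

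Neighbouring tRNA genes were more often both open or both closed when close, in part because fewer of the closest pairs held a single gene. Outside the chromosome 6 cluster, 52 neighbour pairs had gaps under 500 bases, of which 27 were open at both genes and 12 closed at both (75% together). At 5 of the 27 both genes took the same peak. Pairs with gaps from 500 bases to 5 kb had the same state in 64.2% of 106 cases, and those with gaps from 5 to 50 kb in 58.6% of 58.

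The open and closed genes also differed in the sequence around them. The 100 bases upstream held a median of 3 CpG in open and 1 in closed genes, and GC contents of 46.5% and 40%. Of genes with no upstream CpG 10 of 89 (11.2%) were open, with 1 to 2 it was 46 of 144 (31.9%), with 3 to 5 it was 56 of 92 (60.9%) and with 6 or more 36 of 61 (59.0%). Beyond 10 kb from an open start, 43 of 85 genes (50.6%) with at least 3 CpG were open and 30 of 179 (16.8%) with fewer, or 22.6% without the chromosome 6 cluster. Within 10 kb the shares were 49 of 68 (72.1%) and 26 of 54 (48.1%).

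A run of 4 T within 40 bases after the gene, the usual end of an RNA polymerase III transcript, was present in 144 of 148 open and 168 of 209 closed genes. Of the 46 genes without it, 4 were open. The A box, searched by its usual degenerate letters, was found in 97.3% of open and 93.3% of closed genes. The B box was searched on the sense strand as GGTTCGA, 2 free bases and CC, and found in 71.6% of open and 46.4% of closed genes, or 59.6% of closed genes outside the chromosome 6 cluster. With any base in place of the third G, a looser word that includes the first, the shares were 85.8% and 77.0%. Of 31396 RefSeq promoter windows of 300 bases, 0.127% and 0.822% held these words on either strand.

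An intron was annotated in 22 tRNA genes, of which 13 were open. Of the 386, 353 lay between protein-coding genes, 28 in an intron and 5 in an exon of one. The open exonic genes were n-TGtcc1 in Fcgr3, n-TNgtt7 in Ndufs7, n-TRtct4 in Hes7 and n-TGccc7 in Mettl26.

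The windows of the 148 open genes held 491 footprints in replicate 1 and 509 in replicate 2, or 3.32 and 3.44 per gene, and 141 (95.3%) and 140 (94.6%) genes had at least 1. At the 22801 open protein-coding starts, windows of the same length held 3.34 and 3.39 footprints, and 94.1% had at least 1 in each library, so the number at tRNA genes was near that at starts. A footprint overlapped the gene itself at 130 (87.8%) and 128 (86.5%). Of the 209 closed genes 13 and 21 had a footprint in the window.

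The footprints had a common layout. Counting the first base of the gene as 0, their coverage was highest just upstream at -27 in replicate 1 (60.8% of open genes) and at -23 in replicate 2 (72.3%). A second maximum lay inside the gene at 61 in both (71.6% and 68.9%). Between them coverage was lowest at 15, at 0.676% and 0%. A lower maximum lay at -101 in both libraries (27.7% and 29.1%), and from 200 to 300 bases downstream the mean was 2.55% and 2.82%. Of 652 and 669 footprint centres within 300 bases of the start, 112 and 134 lay from -50 to -20, 151 and 153 from 40 to 70, and 9 and 8 from 10 to 40.

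The inner maximum lay over the B box, the main site of TFIIIC. Of 127 open genes with the looser word, whose first letter lay at a median of base 52 of the gene, a footprint overlapped the word in 108 (85.0%) and 102 (80.3%), and in 96 in both. Over the A box, which began at a median of base 8, a footprint lay in 17 of 144 (11.8%) and 33 of 144 (22.9%), and in 8 in both. The upstream maximum lies where TFIIIB is known to be placed. No footprint names its protein.

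Read placement differed along the gene. Cuts from -50 to -20 could be read uniquely with 36 bases from at least 1 side in 99.3% of open genes. From 40 to 70 the share was 95.5%, and from 10 to 40 it was 86.2%, with the lowest value, 25.7%, at position 36. From both sides the shares inside the gene were 18.6% and 17.7%. At position 15, where footprint coverage was lowest, the shares were 99.3% from at least 1 side and 19.6% from both. The part of read placement in the footprint layout was not tested. In the 26 B box genes whose body is unique, 22 and 20 had a footprint over the word, against 86 and 82 of the 101 with copied bodies. Over the A box the shares were 6 of 30 (20%) and 10 of 30 (33.3%) in unique bodies, against 11 of 114 (9.65%) and 23 of 114 (20.2%) in copied ones. The A box share was thus lower in copied bodies in both libraries. The unique and copied bodies are different genes, and the part of read placement in this was not tested.

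Accessible stretches were wider than the gene. At an FDR of 0.001 or below, 95.9% and 98.6% of open genes were accessible at the first base, 73.0% and 81.1% at -100, 92.6% and 95.3% at 100, and 37.2% and 50.7% at 200. The median position of the peak centre was -13.8 in replicate 1 and -15 in replicate 2. Of the closed genes, 26 (12.4%) and 36 (17.2%) had any listed stretch with FDR up to 0.05 in the window, and 6 and 14 had one at 0.001 or below.

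**Figure D5:**
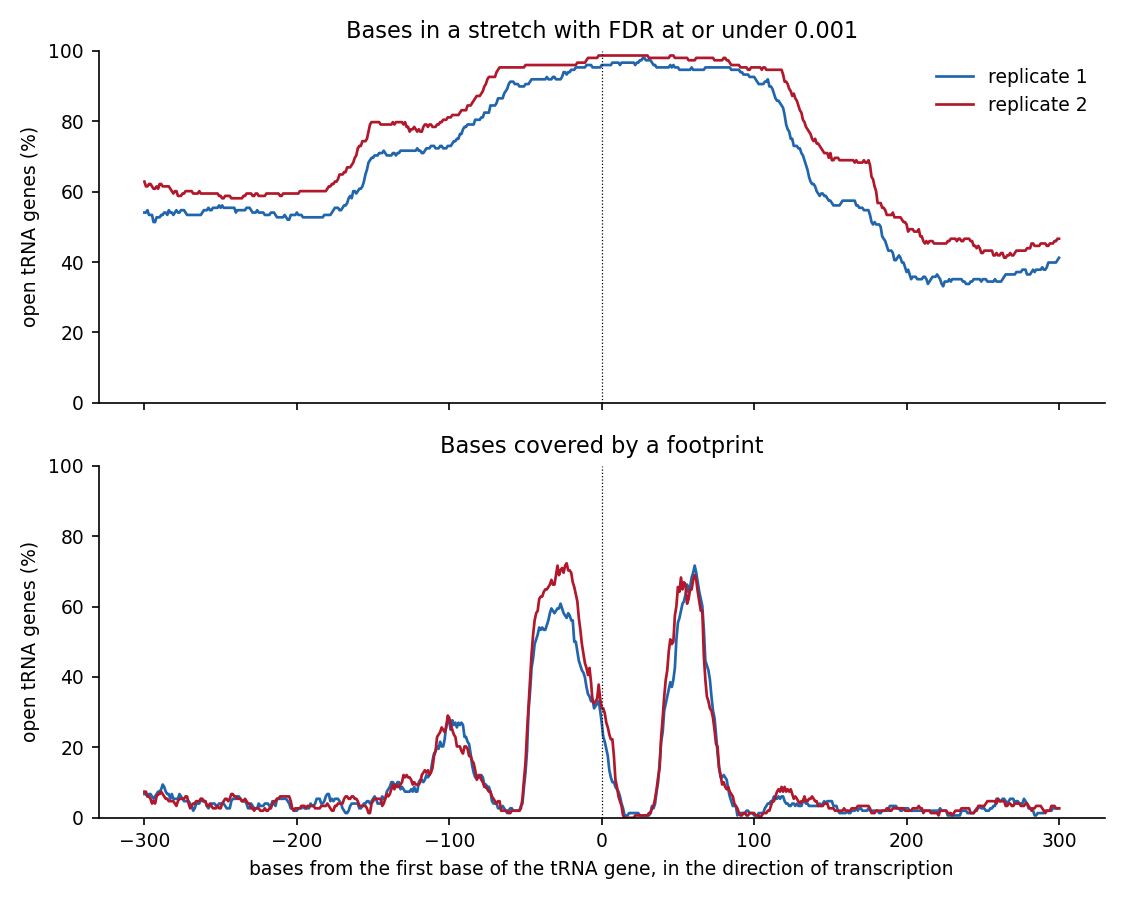
Share of the 148 open tRNA genes (vertical axes, %) at which each base (horizontal axis, from the first base of the gene in the direction of transcription) lay in a stretch with FDR at or below 0.001 (top) or in a footprint (bottom), 1 line per library. The top curves are highest over the gene, and the bottom curves have a maximum on each side of position 15, at -27 and -23 upstream and at 61 within the gene.

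Genes of the RNA polymerase III machinery were open throughout the lists used. All 18 listed subunit genes had a start with a peak within 500 bases in both libraries, as did 12 of 12 for TFIIIB, TFIIIC and regulators, 20 of 20 cytosolic tRNA synthetases and 25 of 25 tRNA processing genes found. Over all 20698 protein-coding genes the share was 56.5%. Maf1, a repressor of RNA polymerase III, was at percentiles 99.1 and 98.8, and Gtf3c1, the TFIIIC subunit that binds the B box, at 99.4 and 98.4. They were the highest of the 12 in their list, whose median of mean percentiles was 92.7. The lowest were Gtf3c3 at 65.9 and 64.9 and Gtf3a at 44.3 and 50.6.

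Other RNA polymerase III transcripts gave a divided picture. Rpph1, the RNA of RNase P that trims tRNA ends, was at percentiles 98.2 and 99.5, Rn7s2, an RNA of the signal recognition particle, at 98.2 and 98.7, Rn7s1 at 92.9 and 93.3, and Rmrp at 66.3 and 76.9. Rn7sk had a peak only in replicate 2, at 32.0. Rny1, Rny3 and Rnu6 had none in either library. Word uniqueness was computed for the tRNA gene windows only, so closed starts and unplaced reads cannot be told apart for these.

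As a check of the tissue, 6 of 7 urothelial marker genes had an open start, the seventh, Krt5, having a peak in replicate 2 only, with 4 of 5 for smooth muscle (Mylk closed) and 2 of 3 for fibroblasts (Dcn closed). None of 6 genes of liver, brain, heart or skeletal muscle had one. Over all 20698 protein-coding genes 56.5% had an open start. Each marker list is small, and the fibroblast share (66.7%) lies near that of all genes.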

How the data were processed

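Peaks, footprints and per-base FDR values were used as deposited, 1 set per library, on mm10 (GRCm38). Per the deposited text, the authors made each list per library from filtered alignments, without pooling. Which aligner and callers were used is not given in the sources used here. Peak heights, a signal in the authors' deposited lists, have no stated scale. In the values it comes in whole multiples (within 0.05 of a step, for 100% of values tested) of 0.0113 in replicate 1 and 0.00893 in replicate 2, and the read depth behind them is unknown. The deposited footprint lists give 1 score, 0.01, to every footprint. The deposited FDR values, a q-value per stretch, reach 0.05. Reads of the hybrid mice were placed on the C57BL/6J assembly. The labels give both libraries 1 donor identifier, which can stand for the strain.

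tRNA genes and sequences came from RefSeq GRCm38.p6 and protein-coding starts from GENCODE. Overlaps, word uniqueness (36- and 76-base words over chromosomes 1 to 19, X and Y) and motif searches were computed with Python 3.11.15, numpy 2.4.6 and numba 0.67.0. Overlap and word counting were tested on simulated data. No statistical test was possible between groups, as there is 1 group. Named genes were the highest peak of each isotype, the 10 highest of all genes, the 5 open genes farthest from and the 5 closed nearest to an open start, the largest mixed sets of identical genes, the largest clusters and the closed genes of the lists. The weakest open genes, the cysteine and methionine genes, single genes of clusters and genes at the window edge were named after their values were seen. Some genes and a set that this rule gives are not reported here. The members and lists were chosen with earlier results of these data known.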

Additional observations from a re-analysis of the deposited data

How the results depend on the processing

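No paired analysis was possible because the series has 1 group. All values rest on 2 libraries, a peak is a yes or no call, and the precision set by read depth is unknown. Of 83 alternative values, 47 stayed within the spread or within 1.5 times the count, 35 moved beyond it and 1 changed sign. All 20 isotypes had an open gene in each of the 10 alternatives that counted them. Counting identical sequences once gave 85 of 211 sequences open in both libraries, 85 in replicate 1 and 94 in replicate 2. A footprint was then at 93 sequences, against 167 of the 386 genes. This way of counting turned the cluster difference to 2.05 points. That difference (-18.95 points) was otherwise below 0 throughout. It was -13.8 with the longer lists, -17.3 with the gene alone, -22.0 with the stronger 50% of peaks, -12.4 with at least 50% unique words, -21.2 and -17.2 with gaps of 10 and 100 kb, and -18.1 to -16.1 with a library left out. The share within 10 kb of an open start, open minus closed (32.5 points), was 32.0 with the longer lists and with the gene alone, 37.5 with 250-base flanks, 32.2 with at least 50 bases of overlap, 37.1 with the stronger 50% of peaks, 32.5 with at least 50% unique words, 46.2 with identical copies once, 35.4 with start windows of 250 bases, 17.9 within 1 kb, 42.0 within 50 kb, and 29.9 to 30.0 with a library left out. The median percentile (79.7) was 84.5 with the longer lists and 75.4 to 81.3 with a library left out. With 1 mismatch allowed the B box was in 91.2% of open and 85.6% of closed genes. Alternatives chosen after seeing the data gave cluster differences of -11.7 without the chromosome 6 cluster and -14.3 with at least 75% unique words. They gave distance differences of 27.1 without that cluster, 21.8 without genes within 1 kb of a start and 30.3 with at least 75% unique words. B box shares were 85.8% and 77.0% with the looser B box word, and 59.6% of closed genes without the cluster.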
